A study of Mus musculus with 6 samples.

Results

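The 10 genes described here encode the core of the G1 switch of the cell cycle: the D-type cyclins *Ccnd2* and *Ccnd3*, the kinases *Cdk4*, *Cdk6* and *Cdk2*, the CDK inhibitors *Cdkn1a* (p21), *Cdkn1b* (p27), *Cdkn2c* (p18) and *Cdkn2d* (p19), and the retinoblastoma gene *Rb1*. They were chosen by symbol from the 23337 genes of the deposited table, and all 10 were found. Their levels were compared between WT and *Hvem*-/- germinal center (GC) B cells.

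Bone marrow (BM) chimeras carrying WT and *Hvem*-/- cells were left 8 weeks to reconstitute and immunized with NP-CGG in alum. GC B cells were sorted at day 11, with 50000 cells in each of 6 samples, numbered 1, 3 and 5 for WT and 2, 4 and 6 for *Hvem*-/-. The WT cells are labelled as C57BL/6 CD45.1/2 and the *Hvem*-/- cells as C57BL/6 CD45.2, and the latter carry the genotype label HVEM KO, with no Cre named. The study's methods name lethally irradiated WT CD45.1 hosts, bought as adults, and the ages of the donor mice are not given in the sources used here. Genotype coincides with donor line and congenic marker in all 6 samples, so loss of HVEM and other differences between the donor lines cannot be told apart. Per the study, the same chimeras held the cells of both genotypes, but no source used here says which samples share one, or that the samples of a genotype came from separate chimeras. The main comparison is therefore unpaired, and p-values therefore reflect a spread between samples that may be technical. Samples below are always listed as WT replicates 1, 3 and 5 and *Hvem*-/- replicates 2, 4 and 6.

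The samples held 2505918 to 3636163 reads in genes, and 9653 genes had enough reads to test. Reads of *Tnfrsf14*, which encodes HVEM, numbered 13, 11 and 17 in WT and 0, 0 and 4 in *Hvem*-/- cells. Its log2 fold change was -3.04 (unadjusted p = 0.0032, adjusted p = 0.178 from edgeR). At these few reads it did not pass an adjusted p under 0.01. GC B cell markers summed to 9070 to 9597 CPM (reads scaled to the size of the library) in WT and 9564 to 10616 in *Hvem*-/- samples, and 0 of 13 were called in edgeR (5 had an unadjusted p under 0.05). T cell markers summed to 218.2 to 239.0 CPM in WT and 120.5 to 187.8 CPM in *Hvem*-/- samples, ranges that do not overlap, and 4 of 11 tested were lower at an unadjusted p under 0.05. Proliferation and G2/M genes summed to 10742 to 12635 CPM in WT and 18201 to 21352 CPM in *Hvem*-/- samples, and 5 of 13 were called, all higher. Summed CPM of naive and memory B cell, myeloid (*C1qa* at 0 in every sample), plasma cell (*Tnfrsf17* at 0) and erythroid markers (*Hba-a1* and *Hba-a2* at 0) overlapped between genotypes. In bulk RNA, fewer cells of a type and less RNA per cell cannot be told apart.

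D-type cyclins are made in response to growth signals and bind CDK4 and CDK6. These kinases, and later CDK2 with its own cyclins, phosphorylate RB1, which then releases E2F factors that switch on genes of DNA synthesis. INK4 inhibitors (p18 and p19 among them) bind CDK4 and CDK6 alone, and CIP/KIP inhibitors (p21 and p27) bind cyclin-CDK complexes. In mouse GC B cells cyclin D3 is known as the D-type cyclin of dark zone cell division, and cyclin D2 as the one more tied to B cell receptor signals. Protein level and phosphorylation, which set much of the activity of this switch, were not measured here.

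None of the 8 members with enough reads to test passed an adjusted p under 0.01 in edgeR's quasi-likelihood test, where 0.218% of all tested genes did (0.186% higher and 0.0311% lower). The member that stood furthest from 0 relative to its error was *Cdkn2c*, at 91.8 ± 20.5 normalized counts in WT and 163.2 ± 30.7 in *Hvem*-/- samples (SD, 3 samples a genotype). The difference was 0.84 on the log2 scale, with an adjusted p = 0.101 from edgeR. The values of *Ccnd3*, *Cdk4* and *Cdkn2d* lay on the lower side in *Hvem*-/- cells, with 95% intervals that reach 0. *Ccnd2*, *Cdk6*, *Cdk2* and *Rb1* had log2 fold changes between -0.12 and 0.12. *Cdkn1a* and *Cdkn1b* were nearly silent, with 51 and 57 reads over all 6 samples.

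Before adjustment, 1 of the 8 tested members was higher and 0 lower at p under 0.05 in edgeR, beside 6.72% of all tested genes higher and 5.22% lower. DESeq2 and limma each called 0 members at an adjusted p under 0.01 and placed 1 at an unadjusted p under 0.05. In 1 member, *Cdkn2c*, all *Hvem*-/- values lay above all WT values, which held for 8.74% of tested genes, and in 0 members did they all lie below, which held for 8.09%. Of the 8 tested members, 3 had a log2 fold change above 0 and 5 below. Their median was -0.07, against -0.0058 over all tested genes. A single member at these background shares is a statement about *Cdkn2c* and not about the group.

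**Figure D1:**
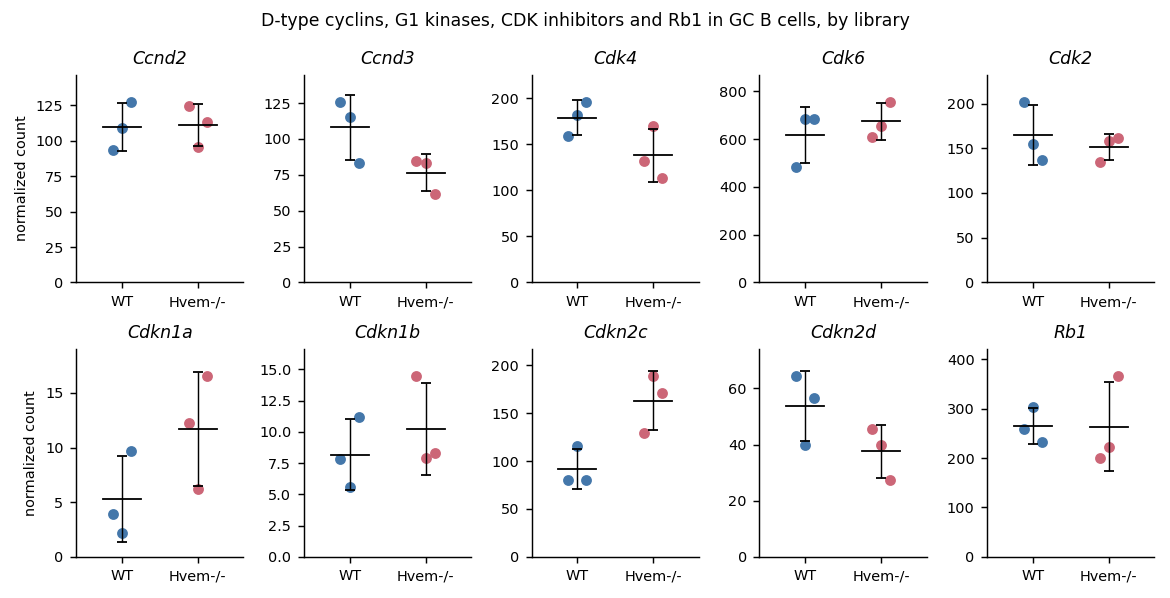
Normalized counts of each of the 10 genes in the 3 WT and 3 *Hvem*-/- samples. Points are samples and bars give the mean and SD of a genotype. The groups are separate in 1 panel, *Cdkn2c*, where WT samples lie between 79.9 and 115.4 and *Hvem*-/- samples between 129.2 and 189.0.

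Levels of different genes were compared as normalized counts per kb of transcript, using the length of the longest reference transcript. *Cdk4* had the highest level, with a mean of 77.3 per kb over the 6 samples (range 55.3 to 95.7). *Rb1* (56.7, range 43.1 to 78.7), *Cdk6* (56.0, 41.8 to 65.7), *Cdkn2c* (51.6, 32.3 to 76.5) and *Cdk2* (48.4, 41.3 to 61.9) followed per kb, and these neighbours overlap in range, also with *Cdk4*. *Cdkn2d* (32.1, 19.1 to 45.3), *Ccnd3* (23.9, 15.9 to 32.6) and *Ccnd2* (17.5, 14.8 to 20.2) came next on that scale, again each overlapping its neighbour. *Cdkn1a* (4.07, 1.07 to 7.96) and *Cdkn1b* (2.02, 1.22 to 3.18) stood below all of them without overlap, and overlapped each other. Among the inhibitors, the INK4 members *Cdkn2c* and *Cdkn2d* were thus the ones with a sizeable transcript level in these cells of either genotype. The place of *Cdkn2c* above *Cdkn2d* rests on the mean over both genotypes. In WT samples *Cdkn2c* had 32.4, 46.7 and 32.3 per kb, beside 45.3, 28.1 and 39.9 for *Cdkn2d*.

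*Ccnd2* (chr6:127125162-127152193, minus strand, GRCm38) encodes cyclin D2. It had 93.7, 108.7 and 127.7 normalized counts in WT and 124.7, 95.4 and 113.5 in *Hvem*-/- cells. The lowest and the highest of the 6 values were both in WT. The means were 110.1 ± 17.0 and 111.2 ± 14.8 (SD, n = 3 each), and the log2 fold change was 0.0016 (95% interval -0.44 to 0.45, adjusted p = 0.998 from edgeR).

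*Ccnd3* (chr17:47505051-47599691, plus strand) encodes cyclin D3. It had 125.9, 115.4 and 82.9 normalized counts in WT and 84.7, 83.0 and 61.5 in *Hvem*-/- cells. WT replicate 5 lay below *Hvem*-/- replicates 2 and 4, so the groups overlapped by that sample. The means were 108.1 ± 22.4 and 76.4 ± 12.9 (SD, n = 3 each), and the log2 fold change was -0.49 (SE 0.238, 95% interval -0.99 to 0.0019, unadjusted p = 0.0508 and adjusted p = 0.420 from edgeR). *Ccnd3* shares 361 exon bases with *Bysl* on the opposite strand, whose log2 fold change was -0.15, and strand use in counting is not given in the sources used here. The lower summed T cell marker level of *Hvem*-/- samples moved with this difference, and T cells also express *Ccnd3*. The part of these markers in it was not tested, nor was their part in the lower values of *Cdk4* and *Cdkn2d*.

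The share of cyclin D3 in the summed *Ccnd2* and *Ccnd3* reads per kb was 68.8%, 63.5% and 51.6% in WT and 52.7%, 58.8% and 47.1% in *Hvem*-/- samples, with overlapping ranges. On reads, WT replicate 1 held 57.3% and *Hvem*-/- replicate 6 held 35.1%, the highest and the lowest of the 6 shares. Cyclin D1 (*Ccnd1*) stood apart as the rare D-type cyclin. Its reads numbered 23, 11 and 7 in WT and 9, 29 and 2 in *Hvem*-/- samples, with a mean of 3.47 normalized counts per kb.

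*Cdk4* (chr10:127063534-127067920, plus strand) encodes a partner kinase of the D-type cyclins. It had 159.1, 182.0 and 196.4 normalized counts in WT and 131.4, 169.5 and 113.5 in *Hvem*-/- cells. *Hvem*-/- replicate 4 lay within the WT range and the other *Hvem*-/- samples below it. The means were 179.2 ± 18.8 and 138.2 ± 28.6 (SD, n = 3 each), and the log2 fold change was -0.38 (SE 0.193, 95% interval -0.78 to 0.03, adjusted p = 0.459 from edgeR). *Tspan31*, which shares 641 exon bases with *Cdk4* on the opposite strand, had a log2 fold change of -0.22. Without *Hvem*-/- replicate 4 the log2 fold change of *Cdk4* was -0.55 (unadjusted p = 0.0190, adjusted p = 0.297 from edgeR), and its adjusted p was 0.297 to 0.831 over 12 unpaired alternatives.

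*Cdk4* is a textbook target of MYC, which binds the E-box CACGTG, so its upstream sequence is shown. The stretch is chr10:127063285-127063533 of GRCm38.p6 (RefSeq, plus strand, 5′ to 3′), the 249 bases before the first annotated exon, with E-boxes in capitals.
Cdk4 upstream: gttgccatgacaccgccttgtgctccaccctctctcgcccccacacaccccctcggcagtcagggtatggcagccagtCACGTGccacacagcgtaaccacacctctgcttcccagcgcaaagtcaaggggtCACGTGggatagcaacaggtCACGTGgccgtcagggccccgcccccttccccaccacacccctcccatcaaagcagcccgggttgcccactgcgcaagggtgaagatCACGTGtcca
It holds 4 E-boxes, which begin 172, 118, 98 and 11 bases before the RefSeq start. In RefSeq windows from 250 bases before to 50 after a start, 7.15% of 32851 held at least 1 E-box and 8 held 4 or more. RefSeq windows were at hand for 8 of the 10 members, and those of *Cdk6* and *Cdkn2c* also held an E-box. *Myc* itself was at 0.50 on the log2 scale (adjusted p = 0.293, edgeR), against -0.38 for *Cdk4*. A match of letters is a description and not a binding site.

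*Cdk6* (chr5:3341485-3531008, plus strand) encodes the other partner kinase of the D-type cyclins. It had 481.3, 685.8 and 684.8 normalized counts in WT and 608.1, 656.1 and 756.7 in *Hvem*-/- cells. The groups overlapped, with WT replicate 1 as the lowest sample. The means were 617.3 ± 117.7 and 673.6 ± 75.8 (SD, n = 3 each), and the log2 fold change was 0.12 (95% interval -0.18 to 0.42, adjusted p = 0.796 from edgeR). Without WT replicate 1 it was -0.032.

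*Cdk2* (chr10:128697939-128705031, minus strand) encodes the kinase that acts with cyclins E and A after the G1 kinases. It had 202.1, 154.2 and 137.4 normalized counts in WT and 134.8, 158.1 and 162.0 in *Hvem*-/- cells. The *Hvem*-/- samples lay largely inside the WT range. The means were 164.6 ± 33.6 and 151.6 ± 14.7 (SD, n = 3 each), and the log2 fold change was -0.12 (95% interval -0.52 to 0.28, adjusted p = 0.851 from edgeR). Without WT replicate 1 it was 0.053.

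Within a sample, reads per kb of *Cdk6* over those of *Cdk4* gave a ratio that needs no scaling between samples. The ratio was 0.539, 0.671 and 0.621 in WT and 0.824, 0.689 and 1.19 in *Hvem*-/- samples. All *Hvem*-/- samples lay above all WT samples, though replicates 3 and 4 were close. On reads, the *Hvem*-/- mean exceeded the WT mean by 1.63, by 0.822 without *Hvem*-/- replicate 6 and by 2.22 without *Hvem*-/- replicate 4. As the members were chosen with earlier results of these data known, no test was run on ratios. How often ratios of other genes separate the genotypes was not computed. The ratio does not cancel the trend with GC content and length described below, as *Cdk6* has 45.1% GC and *Cdk4* 53.3%. With that trend removed, a step added after seeing the data, the log2 fold changes were 0.044 for *Cdk6* and -0.23 for *Cdk4*. They were 0.12 and -0.38 before. The part of this trend in the ratio was not tested. In both genotypes the *Cdk6* level per kb was below that of *Cdk4* except in *Hvem*-/- replicate 6.

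**Figure D2:**
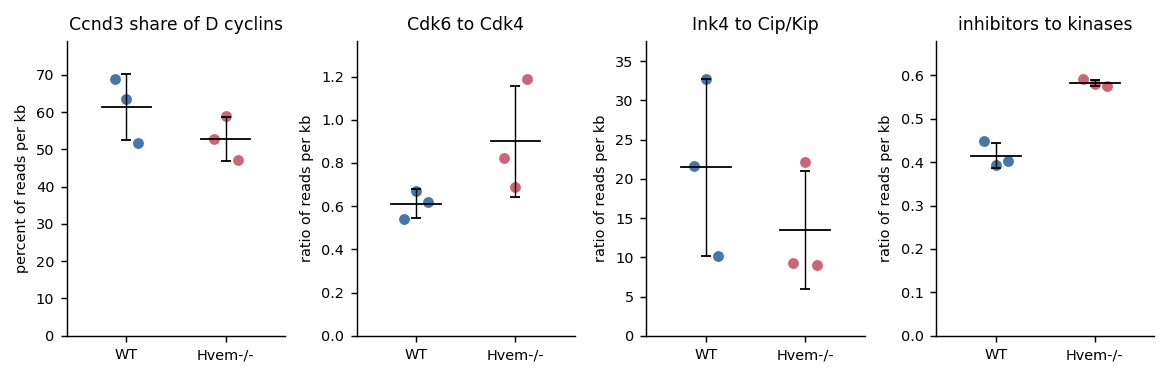
Ratios within each sample, on reads per kb of transcript: the *Ccnd3* share of *Ccnd2* and *Ccnd3* in percent, *Cdk6* over *Cdk4*, INK4 over CIP/KIP inhibitors, and the 4 inhibitors over *Cdk4*, *Cdk6* and *Cdk2*. Each point is a sample. The genotypes are separate in the second and the last panel. In the last panel WT samples lie between 0.394 and 0.449 and *Hvem*-/- samples between 0.576 and 0.591. How often ratios of other genes separate was not computed.

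*Cdkn2c* (chr4:109660876-109667189, minus strand) encodes p18, an INK4 inhibitor of CDK4 and CDK6 that in mice is also needed for functional plasma cells and restrains lymphocyte proliferation. It had 80.1, 115.4 and 79.9 normalized counts in WT and 129.2, 189.0 and 171.4 in *Hvem*-/- cells, from 82, 104 and 107 reads and 116, 214 and 145 reads. All *Hvem*-/- samples lay above all WT samples. The log2 fold change was 0.84 (SE 0.217, 95% interval 0.38 to 1.29), a level 1.78-fold higher in *Hvem*-/- cells (95% interval 1.31 to 2.44). The unadjusted p was 0.000954 and the adjusted p 0.101 in edgeR, so the difference did not pass the threshold over all tested genes. By unadjusted p it ranked 90 among the 9653 tested genes, and 150 of them (1.55%) had a log2 fold change at least as high.

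The direction of *Cdkn2c* was the same in all 12 unpaired alternatives, with log2 fold changes of 0.72 to 1.10. Its adjusted p ran from 0.0196, in edgeR with no filter on low counts, to 0.483, in edgeR without WT replicate 1. It was 0.0633 in DESeq2, 0.0438 in edgeR without *Hvem*-/- replicate 2, and under 0.01 in none of them. With the chimera as a block, a step added after seeing the data and run under each of the 6 possible pairings, the adjusted p was 0.0316 to 0.155 (edgeR). The proliferation and G2/M genes were higher in the same samples (*Mki67* log2 fold change 0.92, adjusted p = 0.00033 from edgeR), and their part in the *Cdkn2c* difference was not tested. *Cdkn2c* lies 45.3 Mb from *Tnfrsf14* on the same chromosome. No other gene shares exon bases with it in the annotation.

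*Cdkn2c* has a pair of RefSeq starts, and a short stretch near each is shown because E2F factors and MYC act on the same G1 switch. Both lie on the minus strand of GRCm38.p6 inside an annotated 5′ untranslated exon and are written 5′ to 3′, with the E2F core TTCCCGC (chr4:109666765-109666791) or the E-box (chr4:109665323-109665348) in capitals.
Cdkn2c upstream start: gggcccggccTTCCCGCtcccgcggcg
Cdkn2c downstream start: gctgaataatCACGTGtgaatcgagg
The E2F core begins 25 bases before the upstream start and the E-box at base 35 after the downstream start. E2F cores were searched on both strands as TTNNCGC, where each N is C or G, and 9.57% of RefSeq windows held one. Among members *Cdk2* also did, at 3 places.

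*Cdkn2d* (chr9:21288410-21291407, minus strand) encodes p19, the other INK4 inhibitor measured here. It had 64.4, 39.9 and 56.8 normalized counts in WT and 45.7, 39.7 and 27.2 in *Hvem*-/- cells. The lowest WT sample lay between *Hvem*-/- samples, so the groups overlapped. The means were 53.7 ± 12.5 and 37.5 ± 9.43 (SD, n = 3 each), and the log2 fold change was -0.52 (SE 0.319, 95% interval -1.19 to 0.14, adjusted p = 0.557 from edgeR). Without *Hvem*-/- replicate 6 it was -0.34. In reads, *Cdkn2c* over *Cdkn2d* was 1.24, 2.89 and 1.41 in WT and 2.83, 4.76 and 6.30 in *Hvem*-/- samples, a ratio looked at after the values were seen. WT replicate 3 was above *Hvem*-/- replicate 2 in it, and the other samples were separate.

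*Cdkn1a* (chr17:29090976-29100727, plus strand) encodes p21, the CDK inhibitor induced by p53. Its reads numbered 4, 2 and 13 in WT and 11, 7 and 14 in *Hvem*-/- samples, too few for the filter on low counts. WT replicate 5 was above *Hvem*-/- replicates 2 and 4 in reads, and in normalized counts (3.91, 2.22 and 9.71 against 12.3, 6.18 and 16.6) the groups overlapped. Pooled, 19 WT and 32 *Hvem*-/- reads gave a depth-adjusted ratio of 1.90 (95% interval 1.05 to 3.55), an interval that covers counting error only. In edgeR without the filter the log2 fold change was 1.05 (SE 0.788, unadjusted p = 0.183, adjusted p = 0.706). With each sample left out it ran from 0.71 (without WT replicate 3) to 1.86 (without WT replicate 5, unadjusted p = 0.0728, adjusted p = 0.731 from edgeR), and it was above 0 in each of these fits.

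*Cdkn1b* (chr6:134920401-134925513, plus strand) encodes p27, an inhibitor held mainly by protein turnover. Its reads numbered 8, 5 and 15 in WT and 13, 9 and 7 in *Hvem*-/- samples, and the groups overlapped throughout. The pooled ratio, 28 against 29 reads, was 1.17 (95% interval 0.672 to 2.04), and the log2 fold change in edgeR without the filter was 0.29 (SE 0.732, adjusted p = 0.917).

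INK4 reads per kb over CIP/KIP reads per kb were 21.6, 32.7 and 10.1 in WT and 9.30, 22.1 and 9.05 in *Hvem*-/- samples. Such values overlap, and they rest on the few *Cdkn1a* and *Cdkn1b* reads. On reads, the *Hvem*-/- mean minus the WT mean was -2.71, and -5.92 to 0.809 with each sample left out. The 4 inhibitors together over *Cdk4*, *Cdk6* and *Cdk2* together were 0.449, 0.394 and 0.402 in WT and 0.591, 0.581 and 0.576 in *Hvem*-/- samples, per kb. This ratio was higher in every *Hvem*-/- sample than in any WT sample, and on reads it was 0.185, 0.160 and 0.155 against 0.231, 0.247 and 0.216. It is a description with no test and no background share of separate ratios beside it. *Cdkn2c*, itself separate between genotypes, supplied the largest part of the inhibitor reads in every sample, so the ratio partly repeats its difference. Per kb, *Cdkn2d* stood above *Cdkn2c* in WT replicates 1 and 5 (normalized counts per kb of 45.3 against 32.4, and 39.9 against 32.3).

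*Rb1* (chr14:73183673-73325822, minus strand) encodes the pocket protein that the G1 kinases phosphorylate. It had 259.7, 302.9 and 232.2 normalized counts in WT and 200.5, 223.4 and 366.5 in *Hvem*-/- cells. *Hvem*-/- replicate 6 was the highest sample and the other *Hvem*-/- samples the lowest. The means were 265.0 ± 35.6 and 263.5 ± 90.0 (SD, n = 3 each), and the log2 fold change was -0.02 (95% interval -0.42 to 0.39, adjusted p = 0.985 from edgeR). Without *Hvem*-/- replicate 6 it was -0.32 (unadjusted p = 0.0770, adjusted p = 0.677 from edgeR). *Lpar6* and *Rcbtb2*, which share 408 and 488 exon bases with *Rb1* on the opposite strand, had log2 fold changes of 0.87 and -0.47, neither called. Exon bases on the opposite strand are also shared by *Ccnd2* (368 with *9330179D12Rik*, 372 with *Gm43126*), *Cdk6* (368 with *Gm17590*), *Cdk2* (34 with *Pmel*) and *Cdkn1a* (273 with *AC167363.2*). The part of such partners in the counts was not tested.

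**Figure D3:**
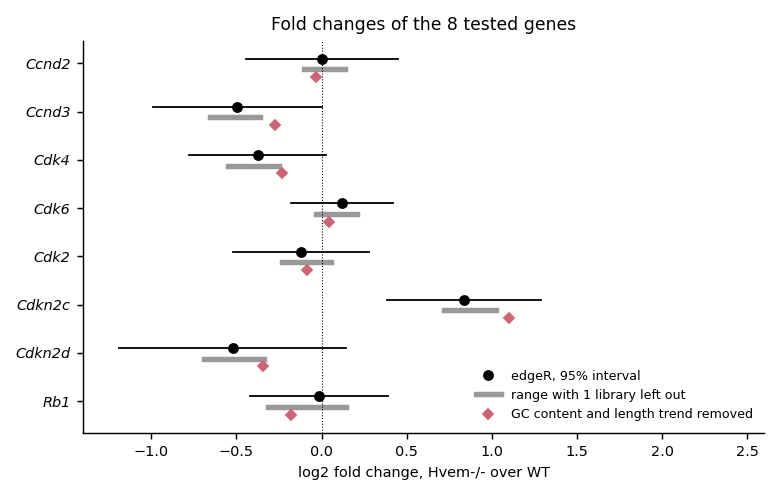
Log2 fold changes of the 8 tested genes, *Hvem*-/- over WT, with 95% intervals from edgeR. Also shown are the range over fits that leave out each sample in turn, and the value after removal of a GC content and length trend. The interval of *Cdkn2c* (0.38 to 1.29) lies above 0, and those of the other tested genes include 0.

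Fold changes in these samples moved with the GC content of transcripts. The median log2 fold change went from 0.21 in the tenth of tested genes with the lowest GC content to -0.26 in the tenth with the highest. *Cdkn2c* has 58.0% GC and was higher in *Hvem*-/- cells, against that trend. *Ccnd3* (56.7%), *Cdkn2d* (55.8%) and *Cdk4* (53.3%) have high GC and lay on the lower side, along it. With the trend removed, a step added after seeing the data, *Cdkn2c* was at 1.10 (adjusted p = 0.0374 from edgeR), *Ccnd3* at -0.27, *Cdkn2d* at -0.35 and *Cdk4* at -0.23 on the log2 scale.

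The genes that act around the members were grouped in lists, and of all of them 1 passed an adjusted p under 0.01. That gene was *Ccna2*, which encodes the S and G2 phase cyclin A2, and it belongs to the other G1/S cyclins and CDK activators (1 of 9 tested rose and 0 fell). It rose from a mean of 1162 ± 86.5 normalized counts to 1839 ± 243.6 (SD, n = 3 each; log2 fold change 0.66, adjusted p = 0.00897 from edgeR). In the same list *Ccne1*, the cyclin E1 gene, was at -0.56 on the log2 scale (adjusted p = 0.384, edgeR), and the median of the list was -0.0008. The remaining CDK inhibitors *Cdkn1c*, *Cdkn2a* and *Cdkn2b* had 8, 4 and 17 reads over all samples and were not tested.

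Of 12 other pocket proteins and E2F factors, 0 were called and 2 were lower before adjustment (edgeR, p under 0.05), with a list median of 0.10. These were the activator genes *E2f2*, at 870.9 ± 117.1 and 616.4 ± 108.7 normalized counts (SD, n = 3 each; log2 fold change -0.50, adjusted p = 0.152), and *E2f1*, at 105.7 ± 29.7 and 64.8 ± 7.97 (-0.73, adjusted p = 0.239). In both, all *Hvem*-/- samples lay below all WT samples, which held for 8.09% of tested genes. Other genes of the list were also separate between genotypes, some higher and some lower. Both *E2f2* and *E2f1* have high GC content (56.6% and 58.3%) and lay along the GC trend above, whose part was not tested. Of 13 tested ubiquitin ligase parts that act on G1 cyclins, p21 or p27, 0 were called, 1 was higher at an unadjusted p under 0.05 (*Cul4a*, 0.39, adjusted p = 0.356) and 1 lower (*Ddb1*, -0.43, adjusted p = 0.233). Both encode parts of the CUL4 ligase.

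Of 13 upstream regulators of the members, 0 were called, and 10 had a log2 fold change below 0, with a median of -0.07. *Myc* was higher and *Stat5a*, a cytokine signal transducer, lower before adjustment (edgeR, p under 0.05; 0.50 and -0.69, adjusted p = 0.293 and 0.261). Of 10 tested p53 targets other than *Cdkn1a*, 0 were called, with a median of 0.04. *Rrm2b*, a ribonucleotide reductase subunit gene, was the single one at an unadjusted p under 0.05 (0.32, adjusted p = 0.349 from edgeR). Of 7 DREAM and MuvB parts, a complex that represses or activates cell cycle genes, 0 were called, with a median of 0.18. *Foxm1*, which acts with it in G2, was higher at an unadjusted p under 0.05 (0.35, adjusted p = 0.303 from edgeR).

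**Figure D4:**
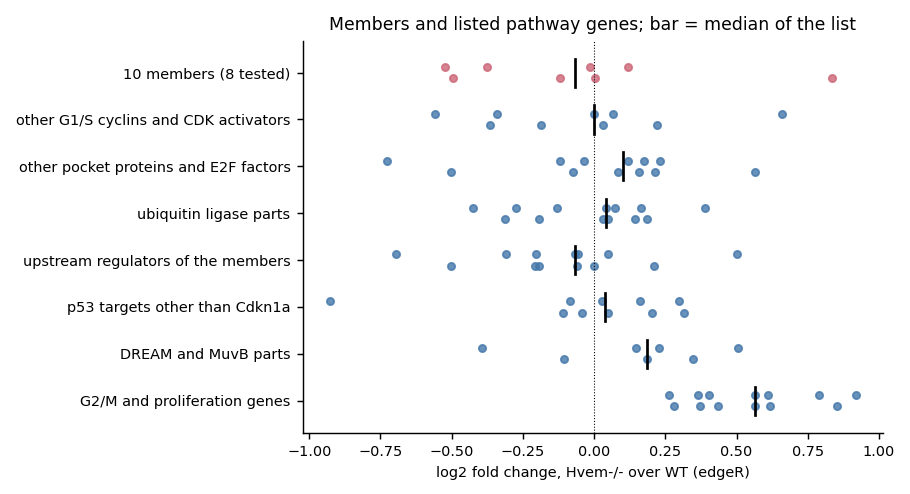
Log2 fold changes, *Hvem*-/- over WT, of the tested members and the listed genes that act around them, with the proliferation and G2/M genes. Points are genes and bars are list medians. Medians of the members and of the lists around them lie between -0.07 and 0.18, and that of the proliferation and G2/M genes is 0.56. *Ccna2* at 0.66 is the gene called in the lists around the members. Of the 13 proliferation and G2/M genes, 5 were called.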

How the data were processed

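The data are RNA-seq of sorted GC B cells, 3 WT and 3 *Hvem*-/- samples grouped by the submitters' labels. Per the study's methods the authors amplified RNA (Nugen Ovation V2), sequenced paired-end reads, aligned with STAR and ran DESeq2, whose versions are not given in the sources used here. CASAVA, Cufflinks 2.1.1, TopHat2 2.0.8b and the build mm10 stand in the submitters' processing notes. The values the authors deposited per sample are a signal, read counts divided by a size factor. The deposited table also has 5 columns of the authors' comparison (log2 fold changes and their error, a Wald score, and p-values), which were not used.

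All values (100%) were whole multiples of 1 read (relative tolerance 1e-06), so read counts were recovered: 2505918 to 3636163 per sample. They were tested in edgeR 4.0.16 (R 4.3.3; filterByExpr, TMM, quasi-likelihood test on genotype alone, Benjamini-Hochberg over 9653 genes, threshold 0.01). Means and SDs are of the deposited normalized counts. Counting intervals (95%) cover counting error only. The functions were tested on simulated data. Lengths, GC content and positions are from GENCODE vM21 (GRCm38), matched by symbol for 20929 genes directly and 1919 by synonym. Between samples of 1 genotype, chi-square over its degrees of freedom was 4.48 to 8.71, above sampling noise, so none was counted as a repeat sequencing of the same library. This value cannot tell separate chimeras from separate preparations of the same cells. The members and lists were chosen with earlier results of these data known. All members are named; of each list, up to 3 genes with the smallest p; of other genes, *Tnfrsf14*, *Mki67*, marker genes and genes that overlap a member. Alternatives were DESeq2 1.42.0, the authors' size factors, no filter, a threshold of 0.05, limma 3.58.1 on log2(value + 1) and log2(value + 0.5), and each sample left out. Removal of a loess trend on GC content and length (span 0.5), the chimera as a block under each of the 6 possible pairings, and the unfiltered fits of *Cdkn1a* and *Cdkn1b* without each sample, were added after seeing the data.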

Additional observations from a re-analysis of the deposited data

How the results depend on the processing

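No member was called at an adjusted p under 0.01 in any alternative, and *Cdkn2c*, *Ccnd3*, *Cdk4*, *Cdkn2d* and *Cdkn1a* kept their direction in each of theirs. The count of all genes called, 21 in edgeR, was 52 in DESeq2, 84 with no filter, 13 in limma on log2(value + 0.5), and 11 with the GC content and length trend removed. With each sample left out it was 3 (without WT replicate 1) to 31 (without *Hvem*-/- replicate 2). The cause was not tested, except that fewer samples enter the last fits. At an adjusted p under 0.05 the same edgeR fit gave 49, as a looser threshold cannot give fewer. Genes at an unadjusted p under 0.05 numbered 1153, and 765 to 1500 with each sample left out, the fewest without WT replicate 1. The log2 fold change of *Ccnd2* ran from -0.10 to 0.13 with each sample left out and was -0.034 with the trend removed, and those of *Cdk6* (-0.032 to 0.21), *Cdk2* (-0.23 to 0.053), *Cdkn1b* (-0.039 to 0.60) and *Rb1* (-0.32 to 0.14) also changed sign with a sample left out. The difference of *Cdk6* over *Cdk4* between genotypes was 1.63 on reads and 0.290 per kb, and that of inhibitors over kinases 0.0647 and 0.168, a change of unit. WT and *Hvem*-/- cells came from the same chimeras, but no paired analysis with known pairs was possible because the samples share no replicate number and no source used here pairs them. With the chimera as a block under each of the 6 possible pairings, added after seeing the data, the count of all genes called was 39, 48, 17, 61, 18 and 44, no member was called, and each tested member kept its direction. Before adjustment *Cdkn2c* was under 0.05 in all 6 pairings, *Ccnd3* in 3 (adjusted p = 0.344 to 0.577 in edgeR) and *Cdk4* in 1 (adjusted p = 0.355 to 0.577 in edgeR). The 51 and 57 reads of *Cdkn1a* and *Cdkn1b* limit those genes, and 3 samples a group limit the other members.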
